A study of Rattus norvegicus with 25 samples.

Results

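The genes described here are 35 myelin and mature oligodendrocyte genes, chosen by name as structural proteins, enzymes, receptors and transcription factors of the mature myelinating cell. All 35 of the listed symbols were found among the 28909 gene names of the count table, and all 35 were among the 14142 genes with enough reads to be tested. RNA was sequenced from the striatum on the lesioned side of 25 female Sprague Dawley rats lesioned with 6-hydroxydopamine (6-OHDA), a toxin that destroys dopamine neurons and is used to model Parkinson's disease. Every animal received levodopa, the precursor of dopamine, at 6 mg/kg QD (once daily), and the title of the study names it as levodopa with benserazide, which limits the conversion of levodopa outside the brain. One arm received levodopa alone (n = 5), and the others received it together with trapidil BID (2 doses per day), at 7.5 mg/kg (n = 10) or 15 mg/kg (n = 10). Trapidil is a drug known to oppose platelet-derived growth factor signalling and to inhibit phosphodiesterases. Dosing lasted 14 days and tissue was taken on day 15. The age of the animals and the share of dopamine neurons left after the lesion are not given in the labels, and no arm without levodopa or without a lesion was analysed here, so each comparison is between lesioned animals on levodopa.

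Oligodendrocytes are the cells that wrap axons of the brain in myelin, a compacted stack of membrane rich in galactolipids and cholesterol. In the striatum they lie along the bundles of myelinated axons that cross the nucleus and among its projection neurons. Their mature stage is known for very high expression of a small set of myelin proteins, switched on together under the transcription factors Sox10 and Myrf. The myelin protein genes Mbp, Mog, Mag and Cnp were read in every library, and the lowest count of any of the 35 genes in any library was 54, for Enpp6. Of 5 markers of Schwann cells, which make myelin in peripheral nerves, Ncmap had no read in all libraries but 1, and Pmp2 had 0 to 15 reads per library. Summed, the 5 ran from 17.8 to 93.9 CPM at 7.5 mg/kg and from 34.5 to 84.1 CPM at 15 mg/kg, against 44.6 to 187.5 CPM on levodopa alone.

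Total counts per library ran from 10838513, in replicate 1 of the 7.5 mg/kg arm, to 20532290. Levels are given in CPM, counts scaled to a common library total after scaling of library sizes, and comparisons as log2 fold changes with their standard errors. Levels of different genes are not compared with each other, because CPM does not account for transcript length. A gene is said to have fallen or risen where its adjusted p from edgeR's quasi-likelihood test, corrected over all 14142 genes, was under 0.05. The numbers of libraries match the numbers of animals in each arm, but the labels do not tie each library to an animal, so the tests measure the spread between these libraries. Levodopa replicate 2 stood apart from the rest of its arm. Its summed striatal projection neuron markers were 11000 CPM, the lowest of all 25 libraries, and its summed astrocyte and endothelial markers were 7175 and 1117 CPM, the highest of all. The main counts and medians below are also given without it.

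At 15 mg/kg, 8 of the 35 genes fell against levodopa alone (22.9%), and none rose. Over all genes tested the share that fell was 1.00% and the share that rose was 0.304%. The 8 were Tspan2, Opalin, Ermn, Mal, Car2, Cnp, Ugt8 and Myrf, and they belong to several parts of the myelinating cell, from membrane proteins to lipid synthesis and transcription. All 35 log2 fold changes were below 0, against 49.8% of all genes. Their median was -0.55 and they ran from -0.79 in Enpp6 to -0.14 in St18, beside a median of 0.00 over all genes tested. At an unadjusted p under 0.05, 31 of the 35 were lower (88.6%), against 11.2% of all genes, and none was higher, against 8.26% of all genes. In bulk tissue a smaller number of oligodendrocytes and less RNA per oligodendrocyte cannot be told apart. Without levodopa replicate 2, 0 of the 35 genes passed. Over all 14201 genes tested in that fit 19 fell and 1 rose, against 142 and 43 of 14142 with all libraries. Of the 35, 25 were lower at an unadjusted p under 0.05 (6.53% of all genes), all 35 values were below 0 and the median was -0.46. Without levodopa replicate 3, which did not stand apart, 0 passed as well.

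**Figure D1:**
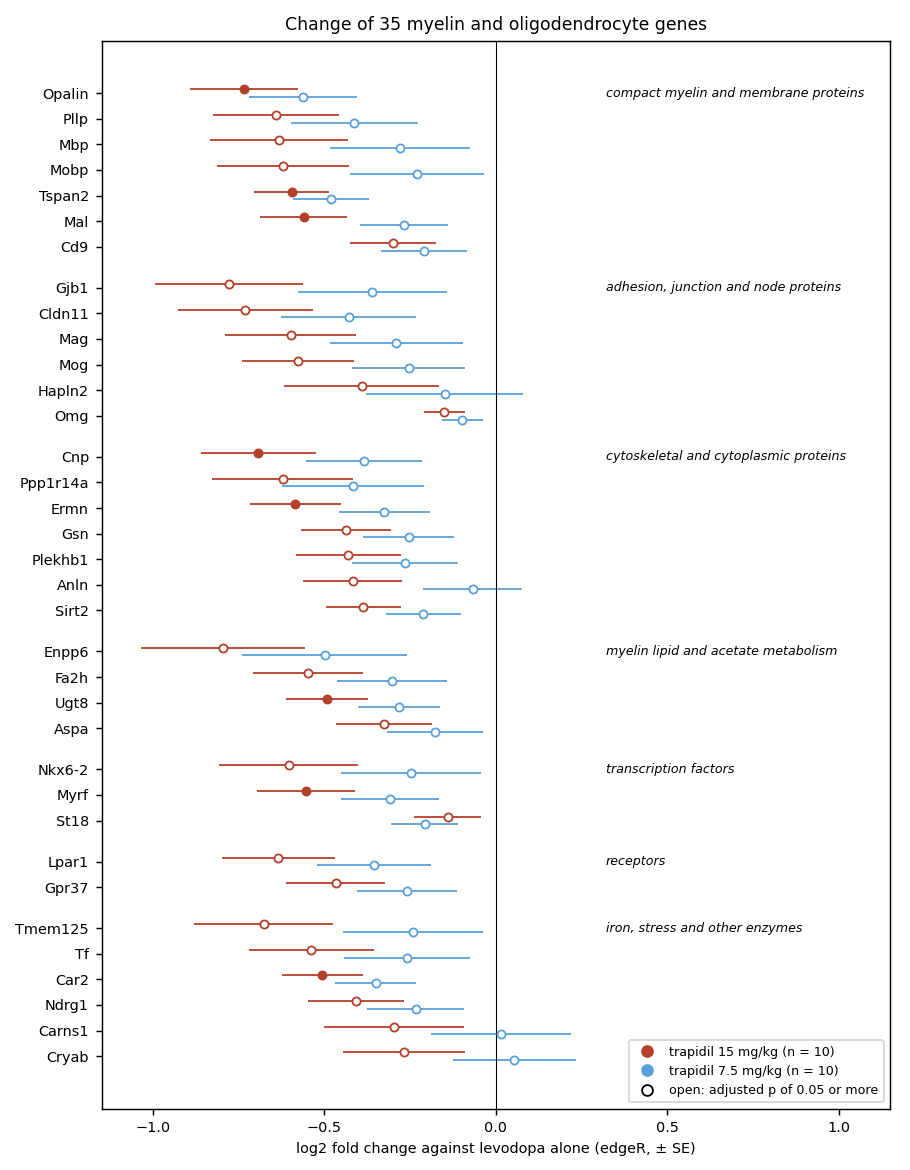
Log2 fold changes of the 35 genes at each trapidil dose against levodopa alone (horizontal axis, points with standard errors; genes down the page by role; 15 mg/kg above 7.5 mg/kg; filled points passed an adjusted p of 0.05). The 15 mg/kg points all lie below 0, with 8 filled, and 33 of the 35 points for 7.5 mg/kg lie below 0, with none filled.

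The starts of 27 of the 35 genes were present in RefSeq's promoter sequences for the GRCr8 build, which cover 250 bases before and 50 after each start. The authors counted reads on another build, Rnor_6.0, so these sequences are shown for the genes' regulatory context and not at positions from the count table. Mog, Ermn, Myrf, St18, Lpar1, Cryab, Car2 and Ndrg1 had no entry. The promoters of the 3 genes with the smallest p at 15 mg/kg among those with an entry, Tspan2, Opalin and Mal, are printed 5′ to 3′ on the gene's strand. Capitals mark the letters CTGGCAC or CTGGTAC, which are the core that the myelin transcription factor Myrf is known to bind, ACAAAG or ACAATG, cores bound by SOX factors, and CAGCTG, an E-box. Each was searched on both strands, so GTGCCAG and CATTGT in capitals are matches on the opposite strand. Tspan2 lies at chr2:192866030-192866329 on the plus strand and its window holds none of these letters. Opalin lies at chr1:249858141-249858440 on the minus strand and its window holds all 3 kinds. Mal lies at chr3:135341374-135341673 on the minus strand and its window holds the Myrf core alone.
Tspan2: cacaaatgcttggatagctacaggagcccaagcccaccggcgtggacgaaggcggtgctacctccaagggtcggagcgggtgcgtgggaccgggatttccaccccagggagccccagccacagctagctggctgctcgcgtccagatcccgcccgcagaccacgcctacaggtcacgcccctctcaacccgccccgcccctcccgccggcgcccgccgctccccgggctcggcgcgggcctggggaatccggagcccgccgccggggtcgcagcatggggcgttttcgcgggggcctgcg
Opalin: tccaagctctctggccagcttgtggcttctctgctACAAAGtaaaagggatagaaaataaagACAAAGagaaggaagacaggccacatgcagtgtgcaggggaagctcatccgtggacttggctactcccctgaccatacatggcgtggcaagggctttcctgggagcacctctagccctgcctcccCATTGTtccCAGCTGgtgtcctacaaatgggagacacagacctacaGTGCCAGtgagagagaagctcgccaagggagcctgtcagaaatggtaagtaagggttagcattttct
Mal: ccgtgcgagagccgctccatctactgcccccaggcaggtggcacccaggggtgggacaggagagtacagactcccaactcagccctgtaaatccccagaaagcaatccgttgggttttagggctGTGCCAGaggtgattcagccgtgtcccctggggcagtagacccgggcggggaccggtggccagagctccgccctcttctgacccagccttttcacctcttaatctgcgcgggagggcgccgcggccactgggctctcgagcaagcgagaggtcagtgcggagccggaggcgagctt

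The Myrf core was found in the windows of 7 of the 27 genes (25.9%), against 1820 of 27457 promoters of the same length in the whole set (6.63%). The SOX cores were found in 8 of the 27 (29.6%) and in 28.6% of all promoters, and the E-box in 7 of the 27 (25.9%) and in 15.1% of all. The 27-base stretches around the 7 Myrf cores are printed below, turned so that the core, in capitals, reads forward, with 10 bases on either side. They are shown as context, since Myrf is itself 1 of the 8 genes that fell. Whether the level of Myrf bears on these genes was not tested. Of the 7 genes, Mal, Opalin and Cnp fell at 15 mg/kg and Mag, Cldn11, Hapln2 and Enpp6 did not pass. A match of letters is a description of the window and no measure of binding.
Mal: tgaatcacctCTGGCACagccctaaaa
Opalin: ttctctctcaCTGGCACtgtaggtctg
Mag: caggcggcccCTGGCACccagggggca
Cldn11: gggtcaggctCTGGTACagggtgtgga
Hapln2: gcaggacaggCTGGCACaaaccaccgg
Cnp: cagctgcttcCTGGCACccaggtttcg
Enpp6: ctggagtgagCTGGCACagctgtgccc

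Among the 7 proteins of compact myelin and the oligodendrocyte membrane, 3 fell at 15 mg/kg (Tspan2, Opalin and Mal), and the group's median log2 fold change was -0.62. Tspan2, a tetraspanin found in oligodendrocyte membranes, had 126, 147 and 202 CPM as its lowest, median and highest levels in the 15 mg/kg arm, against 200.1, 302, 258, 225 and 194 CPM in the 5 levodopa libraries. Only replicate 4 of the 15 mg/kg arm reached the levodopa range, so the arms overlapped by 1 library. The level was 0.661-fold that of levodopa alone (log2 fold change -0.60 ± 0.11, adjusted p = 0.0131). Opalin, a glycoprotein specific to oligodendrocyte membranes, had 75.7, 113.5 and 169.9 CPM (lowest, median, highest) at 15 mg/kg, against 167, 258, 197, 179.6 and 156 CPM on levodopa alone. Again replicate 4 alone reached the levodopa range. Its log2 fold change was -0.74 ± 0.16 (0.600-fold, adjusted p = 0.0217). Mal, a proteolipid of myelin membrane domains, had 241, 292 and 372 CPM at 15 mg/kg, against 482, 510.5, 456, 406 and 331 CPM on levodopa alone. Replicates 2 and 4 of the 15 mg/kg arm overlapped with the lowest levodopa library, replicate 5. Its log2 fold change was -0.56 ± 0.13 (adjusted p = 0.0299).

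Mbp, the basic protein that holds the cytoplasmic faces of compact myelin together, did not pass. It had 2805, 3905 and 6662 CPM at 15 mg/kg, against 5608, 10298, 5914, 4756 and 5051 CPM on levodopa alone, so that levodopa replicate 2 stood far above the other 4 libraries of its arm. In all, 9 of the 10 libraries at 15 mg/kg lay below every levodopa library, and replicate 4 did not. The log2 fold change was -0.63 ± 0.20 (adjusted p = 0.0871) with all libraries and -0.38 (adjusted p = 0.418) without levodopa replicate 2. Mbp alone took 0.28 to 0.67% of all counts at 15 mg/kg, against 0.492 to 0.97% on levodopa alone. Mobp, another basic protein of oligodendrocytes, and Pllp, a myelin proteolipid related to Mal, had log2 fold changes of -0.62 ± 0.19 and -0.64 ± 0.18 (adjusted p = 0.0799 and 0.0649). Cd9, a tetraspanin that many cell types make, had the smallest value of the group, -0.30 ± 0.13 (adjusted p = 0.185), and 3 of its 10 libraries at 15 mg/kg lay below the lowest levodopa library.

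**Figure D2:**
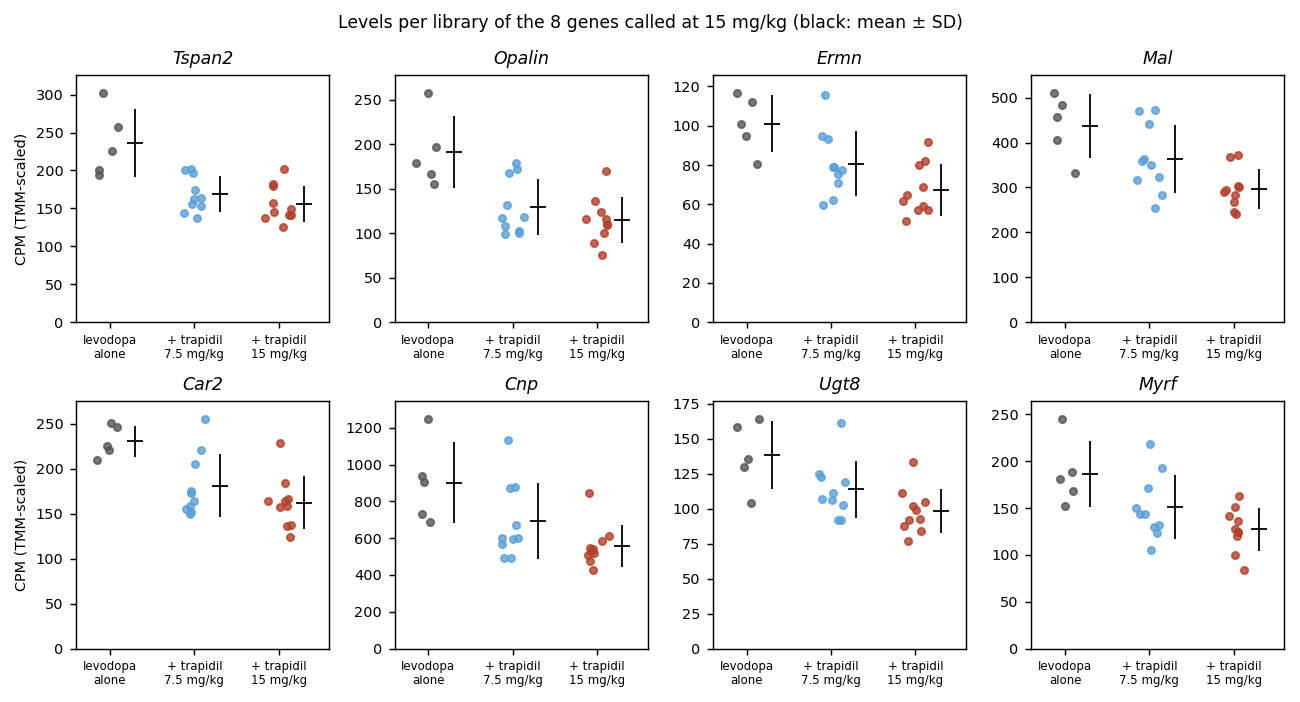
Levels in CPM (linear axis from 0) in each library for the 8 genes that fell at 15 mg/kg, 1 panel per gene, with arms across; points are libraries and black marks are means ± SD. Replicate 4 of the 15 mg/kg arm is the highest of its arm in every panel, and levodopa replicate 2 is the highest of its arm in every panel.

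None of the 6 proteins of adhesion, junctions and nodes passed at 15 mg/kg, although 5 of them had an unadjusted p under 0.05 and the group's median was -0.59. The values closest to the threshold were those of Cldn11, the claudin that seals the turns of central myelin, and Gjb1, the connexin that joins layers of myelin and couples oligodendrocytes. Cldn11 had 232, 297 and 498 CPM (lowest, median, highest) at 15 mg/kg, against 588, 736, 521, 451 and 365 CPM on levodopa alone. Its log2 fold change was -0.73 ± 0.20 (adjusted p = 0.0537), and 8 of 10 libraries lay below every levodopa library. Gjb1 had 16.9, 21.5 and 42.0 CPM at 15 mg/kg, against 48.8, 50.01, 38.8, 32.6 and 29.9 CPM on levodopa alone (log2 fold change -0.78 ± 0.22, adjusted p = 0.0604). All libraries at 15 mg/kg but replicate 4 lay below the levodopa range. Mog, a glycoprotein of the outermost myelin surface, and Mag, an adhesion protein of the innermost layer facing the axon, had log2 fold changes of -0.58 ± 0.16 and -0.60 ± 0.19 (adjusted p = 0.0634 and 0.0878). The members of this group that moved least were Omg and Hapln2. Omg, a surface protein that neurons also make, had 122, 143 and 159 CPM at 15 mg/kg and 139.7, 181, 164, 158 and 145 CPM on levodopa alone (log2 fold change -0.15 ± 0.06, adjusted p = 0.160). Hapln2, a link protein of the matrix at nodes of Ranvier, had a log2 fold change of -0.39 ± 0.23 (adjusted p = 0.347), and 7 of its 10 libraries at 15 mg/kg lay within the levodopa range or above it.

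Of the 7 cytoskeletal and cytoplasmic proteins, Cnp and Ermn fell, and the group's median log2 fold change was -0.44. Cnp, the cyclic nucleotide phosphodiesterase that keeps cytoplasmic channels open in myelin, had 426, 534 and 844 CPM at 15 mg/kg, against 936, 1246, 907, 733 and 687 CPM on levodopa alone. Only replicate 4 at 15 mg/kg overlapped with the levodopa arm (log2 fold change -0.69 ± 0.17, adjusted p = 0.0383). Ermn, an actin-binding protein of late oligodendrocyte stages, had 51.4, 63.2 and 91.6 CPM at 15 mg/kg, against 95.0, 117, 112, 101 and 80.8 CPM on levodopa alone. Replicates 2 and 4 reached the levodopa range (log2 fold change -0.58 ± 0.13, adjusted p = 0.0298). The 5 others did not pass. They were Sirt2, a deacetylase of tubulin abundant in myelin (-0.39 ± 0.11, adjusted p = 0.0632), Gsn, an actin-severing protein (-0.44 ± 0.13, 0.0752), Ppp1r14a, an inhibitor of myosin phosphatase (-0.62 ± 0.21, 0.0938), Anln, a scaffold for actin and septins (-0.42 ± 0.14, 0.108), and Plekhb1, a protein with a lipid-binding domain (-0.43 ± 0.15, 0.121). For Sirt2 and Ppp1r14a, 9 of 10 libraries at 15 mg/kg lay below every levodopa library, while for Gsn 4 of 10 did.

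Ugt8 was the 1 gene of lipid and acetate metabolism to pass, of 4. It makes galactosylceramide, the main galactolipid of myelin, and had 76.7, 95.6 and 133 CPM at 15 mg/kg, against 135, 164, 159, 129.5 and 104 CPM on levodopa alone. Replicates 2, 4 and 5 at 15 mg/kg overlapped with the lowest levodopa library (log2 fold change -0.49 ± 0.12, adjusted p = 0.0383). Fa2h, which hydroxylates the fatty acids of those lipids, had a log2 fold change of -0.55 ± 0.16 (adjusted p = 0.0691). Aspa, which releases acetate from N-acetylaspartate, had -0.33 ± 0.14 (adjusted p = 0.197). Enpp6, a choline-releasing phosphodiesterase known as a mark of newly myelinating cells, had the most negative log2 fold change of the 35 genes and the fewest reads, and did not pass. It had 4.24, 6.04 and 8.41 CPM at 15 mg/kg, against 11.3, 17.1, 8.41, 9.60 and 5.95 CPM on levodopa alone. The 2 arms overlapped, with 5 of 10 libraries at 15 mg/kg within the lower part of the levodopa range (log2 fold change -0.79 ± 0.24, adjusted p = 0.0751).

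Among the 3 transcription factors, Myrf fell, Nkx6-2 did not pass and St18 was near 0. Myrf, which is required for central myelin gene expression, had 84.1, 126 and 163 CPM at 15 mg/kg, against 182, 245, 188, 152 and 168 CPM on levodopa alone. Replicate 4 at 15 mg/kg was the only library of the arm to reach the levodopa range (log2 fold change -0.55 ± 0.14, adjusted p = 0.0473). Nkx6-2, a homeodomain factor of oligodendrocytes, had a log2 fold change of -0.60 ± 0.20 (adjusted p = 0.0990). St18, a zinc finger factor, had 11.9, 14.3 and 16.6 CPM at 15 mg/kg and 14.7, 17.8, 14.9, 18.8 and 13.8 CPM on levodopa alone, and 6 of 10 libraries at 15 mg/kg lay within the levodopa range (-0.14 ± 0.10, adjusted p = 0.443). Both receptors missed the threshold. Lpar1, the receptor for lysophosphatidic acid, came closest of all members that did not pass (-0.63 ± 0.17, adjusted p = 0.0507), with 41.4, 57.7 and 82.6 CPM at 15 mg/kg and 77.8, 144, 96.7, 79.7 and 72.6 CPM on levodopa alone. Gpr37, an orphan receptor of oligodendrocytes, had a log2 fold change of -0.47 ± 0.14 (adjusted p = 0.0799), and for both receptors 9 of 10 libraries at 15 mg/kg lay below every levodopa library.

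Of the 6 remaining enzymes and carriers, Car2 fell. Car2, the cytosolic carbonic anhydrase of oligodendrocytes, had 124, 161 and 228.5 CPM at 15 mg/kg, against 221, 251, 246, 225 and 209.6 CPM on levodopa alone. The levodopa libraries were close together for this gene (SD 0.108 on the log2 scale), and replicate 4 alone at 15 mg/kg reached them (log2 fold change -0.51 ± 0.12, adjusted p = 0.0359). Tf, the iron carrier transferrin, had a log2 fold change of -0.54 ± 0.18 (adjusted p = 0.102). Tmem125, a membrane protein, had -0.68 ± 0.20 (adjusted p = 0.0751), and Ndrg1, a stress-responsive protein of myelinating glia, had -0.41 ± 0.14 (adjusted p = 0.106). Cryab, a small heat shock protein, and Carns1, which joins amino acids to make carnosine, had the weakest values of this group, -0.27 ± 0.18 and -0.30 ± 0.20 (adjusted p = 0.419 and 0.438).

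At 7.5 mg/kg, 0 of the 35 genes passed edgeR's test against levodopa alone, in a comparison where 0.0283% of all genes fell and none rose. DESeq2 called 1 of them (Tspan2) and limma-voom with quality weights called 3 (Tspan2, Opalin and Car2). The shares of all genes that these other tools called are not given here. At an unadjusted p under 0.05 edgeR had 13 of the 35 lower (37.1%), against 6.64% of all genes, and none higher, against 5.02%. The log2 fold changes had a median of -0.26, and 33 of 35 were below 0, against 48.9% of all genes. The most negative were those of Opalin, with 99.5, 118 and 179 CPM (lowest, median, highest) at 7.5 mg/kg (-0.56 ± 0.16, adjusted p = 0.184), Enpp6 (-0.50 ± 0.24, adjusted p = 0.421) and Tspan2, with 138, 163 and 202 CPM (-0.48 ± 0.11, adjusted p = 0.134). For both Opalin and Tspan2, replicates 1, 3 and 6 of this arm reached the levodopa range and the other 7 libraries lay below it. The values of Cryab, Carns1 and Anln were 0.05 ± 0.18, 0.01 ± 0.20 and -0.07 ± 0.15. Without replicate 1 of this arm, Tspan2 passed (adjusted p = 0.0345), 25 genes were lower at an unadjusted p under 0.05 (9.48% of all genes) and the median was -0.37. Without levodopa replicate 2, 3 were lower at that level (Tspan2, Opalin and Car2, against 3.18% of all genes), 32 values were below 0 and the median was -0.18.

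Between the doses, 15 against 7.5 mg/kg, 0 of the 35 genes passed edgeR's test, and 0 passed DESeq2 or limma-voom. Over all genes, 0% fell and 0.0283% rose. At an unadjusted p under 0.05, 13 of the 35 were lower at 15 mg/kg (37.1%), against 2.14% of all genes, and none higher, against 1.49%. The smallest p values belonged to Anln (-0.35 ± 0.12, p = 0.00699), Mal (-0.29 ± 0.11, p = 0.00983) and Tmem125 (-0.44 ± 0.17, p = 0.0166), each with an adjusted p of 0.999. Mal had 241, 292 and 372 CPM at 15 mg/kg and 255, 355 and 473 CPM at 7.5 mg/kg (lowest, median, highest), so the arms overlapped over most of their range. St18 was the 1 gene of the 35 with a value above 0 (0.07 ± 0.08), where 51.2% of all genes had values below 0. The median log2 fold change was -0.24. Without replicate 1 of the 7.5 mg/kg arm it was -0.15, and 2 genes, Mal and Anln, were lower at an unadjusted p under 0.05 (1.42% of all genes). Without replicate 4 of the 15 mg/kg arm, 25 were, and the share of all genes in that fit is not given here. With both doses averaged against levodopa alone, Tspan2 and Opalin passed (2 of 35, 5.71%, against 0.665% of all genes; log2 fold changes -0.54 and -0.65, adjusted p = 0.0132 and 0.0301), and without levodopa replicate 2 neither did. All 35 values were below 0 (49.4% of all genes), 29 with an unadjusted p under 0.05 (10.5% of all genes), and none was higher at that level (7.62% of all genes). When levodopa replicate 2 was left out, 34 values were below 0, with Cryab at 0.06, and 13 had an unadjusted p under 0.05 (5.26% of all genes). Over all 14201 genes tested in that fit, 18 fell and 1 rose. These comparisons share libraries, and so are not independent of each other.

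**Figure D3:**
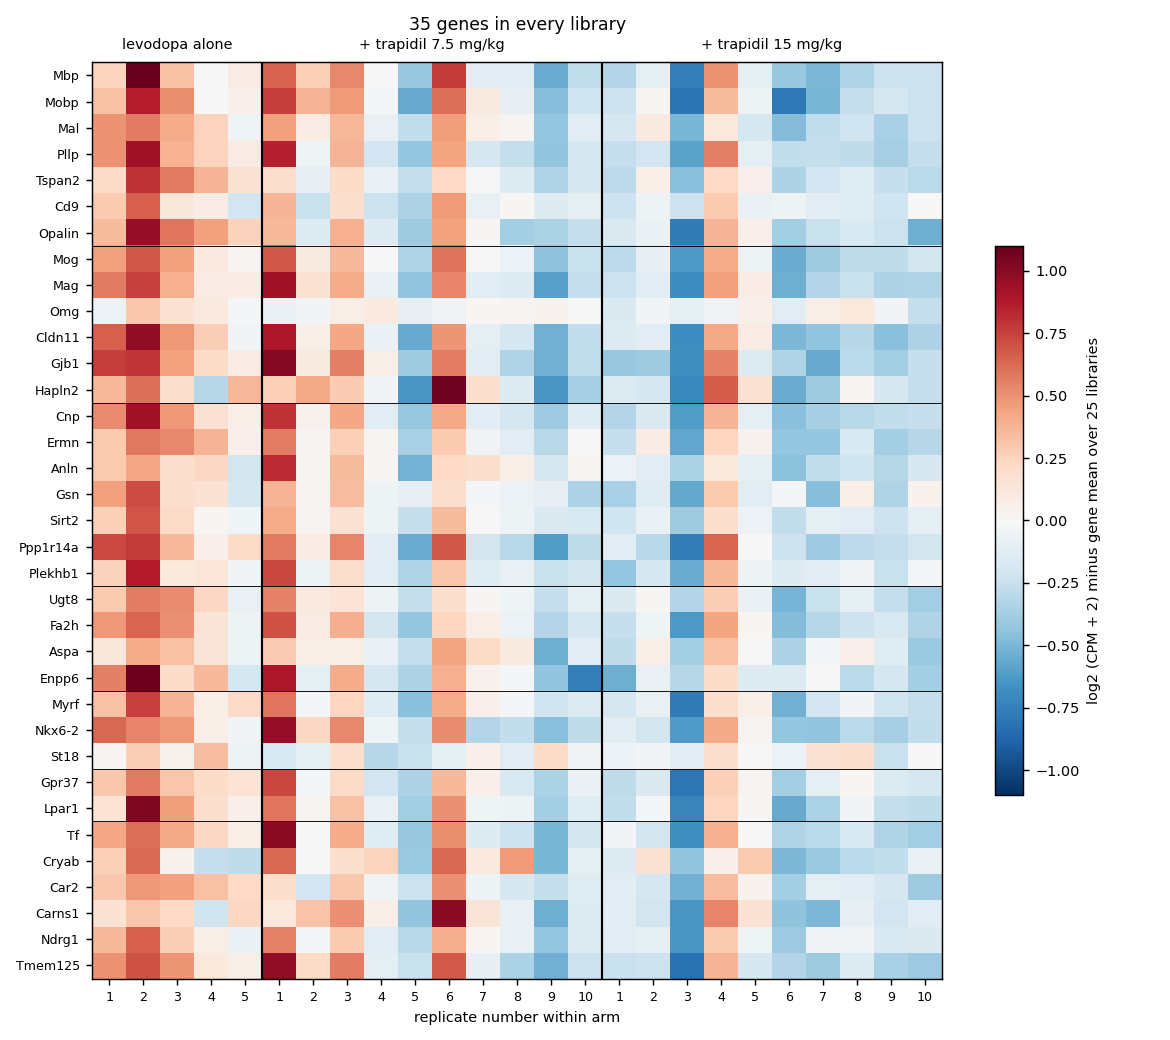
Log2 CPM of the 35 genes (pseudocount 2; down the page, by role) in each of the 25 libraries (across, by arm), as the difference from each gene's mean over all libraries. In several columns all or nearly all genes take 1 colour: every gene is high in levodopa replicate 2 and low in the 15 mg/kg replicate 3, and nearly every gene is high in the 7.5 mg/kg replicates 1 and 6 and the 15 mg/kg replicate 4.

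The 35 genes varied together from library to library. Levodopa replicate 2 was the highest of its arm for 33 of them and replicate 5 the lowest for 28. In the 15 mg/kg arm, replicate 4 was the highest for 33 and replicate 3 the lowest for 28. In the 7.5 mg/kg arm, replicate 1 was the highest for 22 and replicate 6 for 11. The median of the 35 genes' log2 differences from their means over all libraries was 0.34 in the high library at 15 mg/kg and -0.62 in the low one, and 0.68 in levodopa replicate 2. Within arms the genes had a larger spread than the median gene. The SD of log2 CPM had a median of 0.29 over the 35 genes on levodopa alone, 0.35 at 7.5 mg/kg and 0.28 at 15 mg/kg, against 0.18, 0.16 and 0.13 over all genes tested. Without replicate 2 the levodopa arm had a median SD of 0.21, against 0.13 over all genes. Summed, the 35 genes took 1.04 to 1.83% of all counts on levodopa alone (median 1.32%), 0.751 to 1.62% at 7.5 mg/kg (median 0.964%) and 0.635 to 1.36% at 15 mg/kg (median 0.849%).

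No gene of the 35 separated the 15 mg/kg arm wholly from levodopa alone, with every library of one below every library of the other, while 0.410% of all genes did. Without levodopa replicate 2 none of the 35 did (0.615% of all genes), and none separated the 7.5 mg/kg arm from levodopa alone (0.0636% of all genes). For 16 of the 35 genes (45.7%) at least 9 of the 10 libraries at 15 mg/kg lay below every levodopa library, against 1.82% of all genes, and the library that did not was replicate 4 in each case. The same 16 genes were found without levodopa replicate 2 (2.46% of all genes), since that library was the lowest of its arm for none of them. Counted by library, 33 to 35 of the 35 genes lay below their levodopa mean in each library at 15 mg/kg other than replicate 4, where 19 did. At 7.5 mg/kg the number was 33 to 35 in 7 libraries and 7, 18 and 12 in replicates 1, 3 and 6. The levodopa libraries themselves had 14, 0, 17, 32 and 33 genes below the mean that they make up. Against the mean of the levodopa arm without replicate 2, the number was 32 to 35 at 15 mg/kg, with 8 in replicate 4, and 30 to 35 at 7.5 mg/kg, with 5, 8 and 6 in replicates 1, 3 and 6. The share of all genes below their levodopa mean in each library is not given here. Because the 35 genes vary together, the genes counted within 1 library are not independent of each other.

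**Figure D4:**
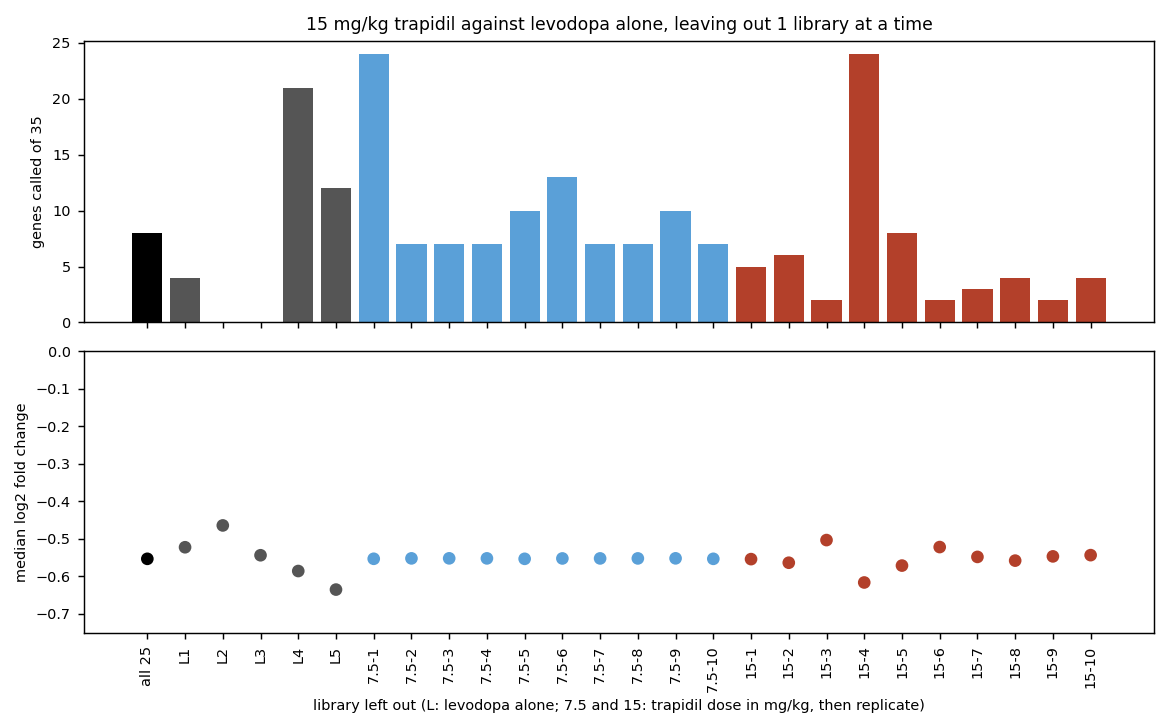
Number of the 35 genes that passed at 15 mg/kg against levodopa alone (upper panel, bars from 0) and their median log2 fold change (lower panel) when each of the 25 libraries was left out in turn (horizontal axis), with the values for all 25 libraries first, at 8 genes and -0.55. The number is 0 when levodopa replicate 2 or 3 is missing and 24 when the 15 mg/kg replicate 4 or the 7.5 mg/kg replicate 1 is, while the median stays between -0.64 and -0.46.

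The number of genes that passed at 15 mg/kg turned on single libraries. It was 0 without levodopa replicate 2 and 0 without levodopa replicate 3, and 4 without levodopa replicate 1. It was 21 without levodopa replicate 4 and 12 without levodopa replicate 5, the libraries with the lowest levels in their arm. Leaving out the 15 mg/kg replicate 4 gave 24. Leaving out others of that arm gave 5 (replicate 1), 4 (replicates 8 and 10), 3 (replicate 7) and 2 (replicates 3, 6 and 9). Leaving out the 7.5 mg/kg replicate 1 or 6, which enter this comparison through the shared estimates of spread and scaling, gave 24 and 13. Tspan2 and Opalin passed in 23 of these 25 fits, Ermn and Mal in 19, Car2 in 17, Ugt8 in 15, Cnp in 14 and Myrf in 7. Without levodopa replicate 2 the log2 fold changes of Tspan2 and Opalin were -0.49 and -0.60 (adjusted p = 0.0628 and 0.126). In a fit of the 15 mg/kg and levodopa arms alone, without the 7.5 mg/kg libraries, 23 of the 35 passed, and DESeq2 and limma-voom with all libraries called 19 and 21. Apart from the fit without levodopa replicate 2, where fewer of all genes passed too, the numbers of all genes passing are not given here. Without those numbers, these counts cannot be set against the share of all genes, and nothing particular to the 35 genes is read from them.

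Other genes of the oligodendrocyte lineage and of other cells were examined as lists. Of 32 other mature oligodendrocyte genes, 7 fell at 15 mg/kg and none rose, with a median log2 fold change of -0.58 and all 32 below 0. They included Nfasc, which anchors myelin at the node, Adamts4, a protease of oligodendrocytes, and Nipal4, a magnesium transporter (-0.45 ± 0.10, -0.73 ± 0.15 and -0.92 ± 0.20, each with an adjusted p of 0.0217). Gltp, a glycolipid transfer protein, fell too (-0.59 ± 0.14, adjusted p = 0.0319). Among 12 genes of precursors and of the lineage as a whole, Sox10, which acts at all stages of the lineage, fell (-0.63, adjusted p = 0.0464). The median of the 12 was -0.39, and they ran from -0.86 to -0.11. When levodopa replicate 2 was left out, 9 of the 12 were below 0 and 3 above it, with Sox10 at -0.54 (adjusted p = 0.188). The list mixes precursor genes with genes of the whole lineage, and its median does not describe either kind alone. None of 8 genes of newly formed oligodendrocytes passed (median -0.43, with Cnksr3 nearest at -0.50, adjusted p = 0.0545). None of 19 cholesterol synthesis genes passed either (median -0.17). At an unadjusted p under 0.05, 27 of the 32 other mature genes and 7 of the 12 precursor and lineage genes were lower. So were 6 of the 8 newly formed genes and 7 of the 19 cholesterol synthesis genes, against 11.2% of all genes. Without levodopa replicate 2 no gene of these 4 lists passed, and the medians were -0.45 for the other mature genes, -0.24 for precursors and lineage, -0.18 for newly formed oligodendrocytes and -0.09 for cholesterol synthesis. In that order, 23 of 32, 4 of 12, 3 of 8 and 2 of 19 were lower at an unadjusted p under 0.05. The share of all genes lower at that level was 6.53% in this fit. All these genes were compared over the same libraries, and without a test of the difference none of the lists is set apart from the 35.

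**Figure D5:**
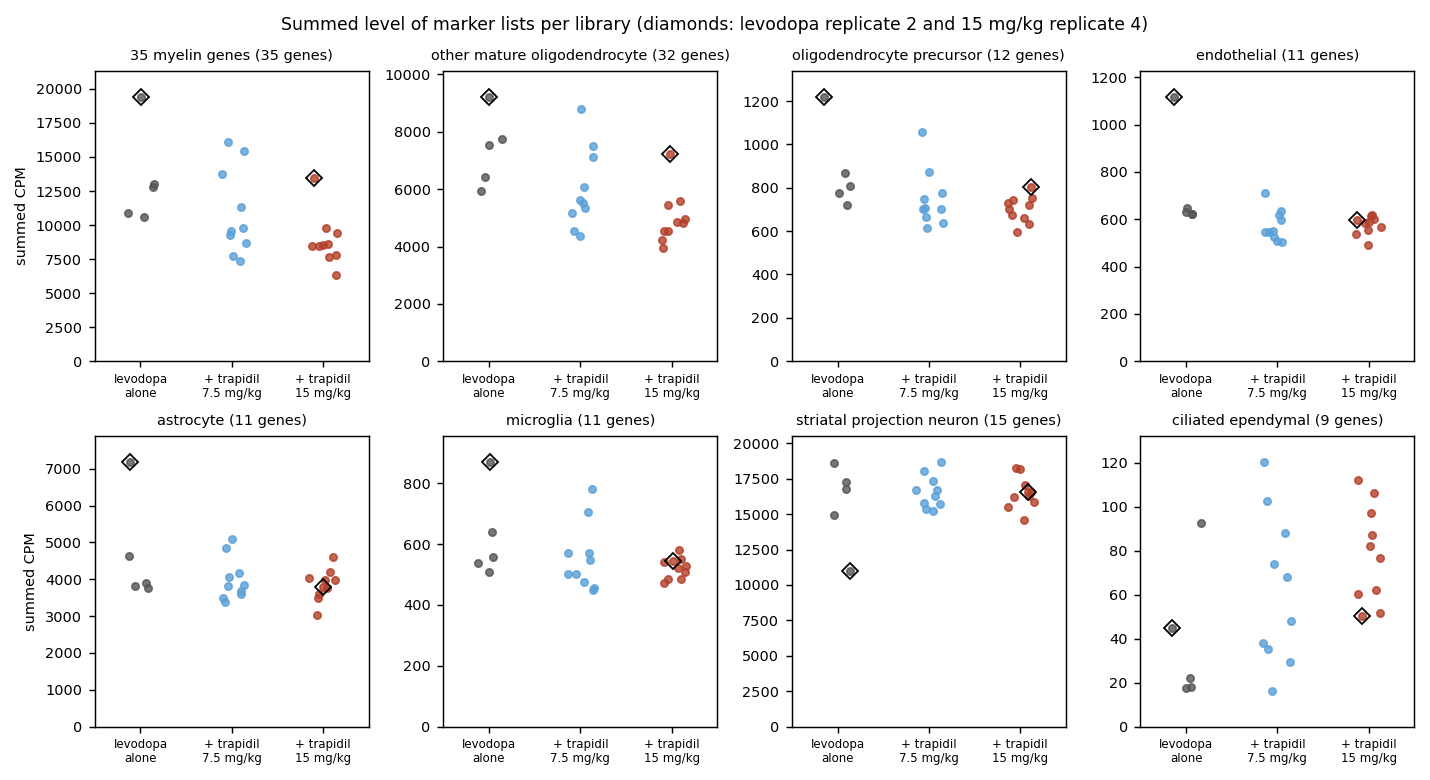
Summed CPM of each gene list in every library (vertical axes from 0, 1 panel per list; arms across; diamonds mark levodopa replicate 2 and the 15 mg/kg replicate 4). The 35 genes and the other oligodendrocyte, endothelial and microglial lists are lower at 15 mg/kg than on levodopa alone by their medians. The astrocyte list is slightly lower (median 3876 against 3903 CPM). The ciliated ependymal list is higher, and striatal projection neuron markers lie at like levels in the arms except for levodopa replicate 2.

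Markers of other cell types were compared in the same way. Summed over 9 ciliated ependymal genes, levels ran from 50.4 to 111.9 CPM at 15 mg/kg, against 22.1, 45.0, 17.9, 92.3 and 17.7 CPM in the levodopa libraries. All 9 had log2 fold changes above 0 (median 1.09), although none passed edgeR's test (Spag6l, a part of the ciliary axoneme, nearest at 0.81, adjusted p = 0.0561). At an unadjusted p under 0.05, 6 of the 9 were higher, against 8.26% of all genes. With the score of this list added to the model, 0 of the 35 myelin genes passed at 15 mg/kg and their median was -0.28. With 4 region scores added, 0 passed and the median was -0.17. Those 4 were of the cortical, the pallidal and hypothalamic, the choroid plexus and this same ependymal list. The ependymal levels themselves differed between the arms, so the score can take up part of the arm difference. What it takes up cannot be told apart from an effect of the arm. Endothelial markers summed to 491.9 to 616.4 CPM at 15 mg/kg, against 621.5 to 1117 CPM on levodopa alone, so that the arms did not overlap, and 1 of the 10 tested fell (Slco1a4, a transporter of the blood-brain barrier, -0.47, adjusted p = 0.0463). All 10 had log2 fold changes below 0 (median -0.43), 9 with an unadjusted p under 0.05, against 11.2% of all genes lower at that level. Without levodopa replicate 2, 9 were below 0 (median -0.23) and 4 were lower at that level, against 6.53% of all genes. The adjusted p of Slco1a4 was then 0.249. Astrocyte markers summed to 3025 to 4594 CPM at 15 mg/kg, against 3769 to 7175 CPM on levodopa alone, and microglial markers to 473 to 581 CPM, against 509.6 to 868.7 CPM. None of 11 genes passed edgeR's test in either list, with Acsbg1 nearest among the astrocyte genes (-0.24, adjusted p = 0.132). At an unadjusted p under 0.05, 4 astrocyte and 5 microglial genes were lower, against 11.2% of all genes. Without levodopa replicate 2, 0 of either list were, against 6.53% of all genes. The median log2 fold changes were -0.19 for astrocytes and -0.28 for microglia with all libraries, and -0.02 and -0.06 without levodopa replicate 2. Summed markers of striatal projection neurons ran from 14570 to 18260 CPM at 15 mg/kg, against 11000 to 18600 CPM on levodopa alone, with a median log2 fold change of 0.10 and none of the 14 tested passing (Arpp21 nearest at 0.22, adjusted p = 0.153), and without levodopa replicate 2 the median was -0.04. Of 4 choroid plexus markers tested, 3 had log2 fold changes above 0 without passing, and the median was 0.86. The other one, Ttr, which carries thyroid hormone, fell (-5.11, adjusted p = 0.0217), with at most 0.487 CPM at 15 mg/kg, against 23.4 CPM in levodopa replicate 2 and a median of 0.298 CPM on levodopa alone. Without that library its log2 fold change was -0.79 (adjusted p = 0.846). None of the 4 cortical and none of the 6 pallidal and hypothalamic markers tested passed edgeR's test, with Gbx1 nearest among the pallidal and hypothalamic markers (-0.87, adjusted p = 0.256). At an unadjusted p under 0.05, 2 and 1 of them were lower, against 11.2% of all genes. The part of these other cell types in the myelin result was not tested, and the scores added to the model cannot decide it.

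Reads of overlapping genes cannot be told apart where strand was not counted, and the strand setting is not given in the sources used here. In the GRCr8 annotation, 9 of the 35 genes overlap another protein-coding gene. They are Tspan2 (Tshb), Mog (Zfp57), Omg (Faul2 and Nf1), Anln (Matcap2), Plekhb1 (Rab6a), Aspa (Trpv3 and Spata22), Cryab (Hspb2), and Sirt2 and Ppp1r14a (each with 1 gene named by its locus number). Of the 8 genes that fell at 15 mg/kg, Tspan2 is the 1 that overlaps a protein-coding gene, that of a pituitary hormone subunit. Counting annotated genes of every kind, 15 of the 35 overlap another gene, among them Tspan2, Mal and Ugt8 of these 8.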

How the data were processed

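Polyadenylated RNA of 25 striatum samples was sequenced, per the labels. The authors deposited raw read counts per gene for 28909 gene names. They used FastQC, STAR and HTSeq on Rnor_6.0, per the submitters' processing notes. Versions, annotation, strand setting and read filters are not given in the sources used here. Collection was at 1 hour of dosing, per the labels, which do not say whether before or after it.

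Arms were read from the labels. Genes were filtered with filterByExpr by arm (14142 kept), scaled by TMM and fitted with edgeR 4.0.16 (R 4.3.3) quasi-likelihood, all 25 libraries together in 1 design by arm; the common biological coefficient of variation was 0.139. P-values, all two-sided, were adjusted by the Benjamini-Hochberg method over the 14142 genes, with a threshold of 0.05. Every adjusted p is from this test unless another tool is named. Standard errors are the log2 fold change over the square root of F. The CPM unit comes from scaling the authors' deposited counts by TMM factors. Log2 CPM used a pseudocount of 2.

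All 35 members were named whatever their result. From other lists up to 4 called genes by smallest p were named, or the 1 with the smallest p; some genes of these lists are not reported here. Members and lists were chosen with earlier results of these data known. The counts of libraries below the levodopa range were added after the values were seen. Every pair of libraries differed by more than sampling noise, with a chi-square per degree of freedom (genes of 20 or more reads) of at least 4.83 in 100 pairs within arms and 3.84 in 200 pairs between arms. No batch or date is given in the sources used here. The steps were tested on simulated data. Alternatives used DESeq2 1.42.0, limma 3.58.1 (voom), other scalings, filters, libraries and covariates.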

Additional observations from a re-analysis of the deposited data

Results flagged for a closer look

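In 17 of 105 groups, each made of 1 gene in 1 arm, 1 library lay farther from the next than Dixon's test allows at the 95% level, where chance gives about 1 in 20. All 17 were the highest library of their group. In the 15 mg/kg arm the library was replicate 4 in 12 cases. It had 83.5 CPM for Cd9, 844 for Cnp, 90.2 for Fa2h, 42.0 for Gjb1, 74.6 for Hapln2 and 6662 for Mbp. It had 149.3 CPM for Mog, 386 for Plekhb1, 146.8 for Pllp, 71.0 for Ppp1r14a, 240.8 for Sirt2 and 39.7 for Tmem125. The next library of the arm had 67.9 CPM for Cd9, 609 for Cnp and 4421 for Mbp.

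On levodopa alone the library was replicate 2 for Mbp (10298 CPM, next 5914) and for Plekhb1 (553.6 CPM, next 359). At 7.5 mg/kg it was replicate 1 for Plekhb1 (503.1 CPM, next 373) and Ugt8 (161 CPM, next 124), and replicate 6 for Hapln2 (98.9 CPM, next 62.2). The 35 genes vary together between libraries, so these cases are not independent of each other.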

How the results depend on the processing

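At 15 mg/kg against levodopa alone, the median log2 fold change of the 35 genes was below 0 under every alternative run, and between -0.64 and -0.46 when each library was left out in turn. The number of genes passing was far less stable. It was 8 as reported, 9 with RLE scaling, 8 with upper quartile scaling and 7 without the low-count filter. It was 19 with DESeq2, 21 with limma-voom, 23 with the 2 arms compared alone and 24 at a threshold of 0.10. It was 1 with both the 7.5 mg/kg replicate 1 and levodopa replicate 2 left out, 1 with the cortical score as covariate, 0 with 4 region scores and 0 with the ciliated ependymal score, which was added after seeing the data. Leaving out each library gave 0 to 24. With 4 region scores, which include the ependymal score, the median was -0.17. For this and the other comparisons, the numbers of all genes passing under each alternative are not set beside these counts. The cause of these differences was not tested.

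At 7.5 mg/kg the number was 1 with DESeq2 and 3 with limma-voom, and 0 to 1 when libraries were left out (median -0.37 to -0.18). Between the doses it was 0 throughout (median -0.33 to -0.15). For both doses together it was 8 with DESeq2, 19 with limma-voom, 10 at a threshold of 0.10, 1 without the 2 libraries and with the cortical score, and 0 with 4 region scores or the ependymal score. Leaving out each library gave 0 to 17 (median -0.49 to -0.32), and 4 region scores gave a median of -0.12.

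The numbers lower at an unadjusted p under 0.05 were also recounted with each library left out, chosen after seeing the data. They ran from 25 to 33 at 15 mg/kg, 3 to 25 at 7.5 mg/kg, 2 to 25 between the doses and 13 to 32 for both doses together.

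With the replicate block, the number was 0 at 15 mg/kg (median -0.43) and 0 for both doses together. The labels give no pairing by replicate number, so the block adds terms that the design does not give. Over 20 pairs of the same number the correlation of their deviations ran from -0.42 to 0.21, with 8 above 0.1. Pairs of different numbers were not set beside them, so these values cannot tell whether the numbers pair the libraries.

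Some log2 fold changes changed sign. With 4 region scores, those at 15 mg/kg were Hapln2 0.24, Cryab 0.14 and Carns1 0.18. At 7.5 mg/kg they were Mbp 0.0019, Mobp 0.014, Hapln2 0.14, Anln 0.067, Nkx6-2 0.020 and Tmem125 0.027. Between doses they were Hapln2 0.10 and Ppp1r14a 0.0057, and for both doses Hapln2 0.19, Cryab 0.20 and Carns1 0.22. With the ependymal score they were Hapln2 0.13 and Carns1 0.16 at 15 mg/kg, Hapln2 0.086 at 7.5 mg/kg, Hapln2 0.045 and Ppp1r14a 0.022 between doses, and Hapln2 0.11, Cryab 0.087 and Carns1 0.19 for both doses. At 7.5 mg/kg Anln was 0.0021 with the replicate block and Carns1 -0.18 with limma-voom, and for both doses Cryab was 0.031 without the 2 libraries. When single libraries were left out, Anln ran from -0.17 to 0.0013, Cryab from -0.032 to 0.22 and Carns1 from -0.13 to 0.082 at 7.5 mg/kg, and Cryab from -0.19 to 0.062 for both doses. None of these genes had passed. The cause was not tested. The part of read depth in these comparisons was not tested.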
